A study of Mus musculus with 12 samples.

Results

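The proximal tubule genes described here were Lrp2, Cubn, Slc34a1, Slc5a2, Slc5a12, Kap, Miox, Gpx3, Ass1 and Cyp2e1. They were chosen by name, as the rows of the deposited count table with one of these 10 symbols, and each symbol had 1 row among 23378 genes. RNA had been sequenced from cells sorted from mouse kidney cortex, in 12 libraries, and neither sort was aimed at the proximal tubule. The 10 genes were therefore read as a measure of proximal tubule RNA in the sorts. All mice were on the C57BL6/J background and carried nNOS/CreERT2, a ligand-switched Cre recombinase driven by the neuronal nitric oxide synthase gene, together with the mTmG reporter. Recombination changes this reporter from membrane tdTomato (red) to membrane eGFP (green), so the green sort holds whichever cells drove that Cre. Green cells were collected as macula densa (MD) cells. The brightest red cells were collected as control cells, meant to stand for distal tubule and collecting duct epithelium. Mice received either control diet or, for 14 days, LS+ACEi, that is a diet low in salt and drinking water that held 150 mg/L of enalapril, which inhibits angiotensin-converting enzyme. There were 4 control-cell libraries and 2 MD libraries on each diet. The labels give neither sex nor age and do not say whether the libraries of a group came from separate animals, so the p-values measure only the spread between these libraries, which may be technical.

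The proximal tubule is the first nephron segment after the glomerulus and takes back most of the filtered sodium, phosphate, glucose, amino acids and protein. It does so through brush border transporters and the endocytic receptors megalin and cubilin, and it is a main site of renal intermediary metabolism. The macula densa is a small plaque of cells in the wall of the thick ascending limb, beside the glomerulus, that senses luminal salt and controls renin release and glomerular filtration. In RNA from sorted pools, fewer proximal tubule cells and less RNA per proximal tubule cell cannot be told apart. Nor can either be told apart from RNA of these genes made by other cells of a sort.

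Total counts per library ran from 4259034 to 14856540, of which the single gene Gm42418, which overlaps ribosomal RNA sequence, took 53.5% to 65.0%. Levels are CPM, counts relative to library totals scaled by trimmed means of M values (TMM), and 3 counts corresponded to 0.231 to 0.734 CPM. The 4 macula densa markers summed to 378 CPM or more in each MD library and to 20.8 CPM or less in each control-cell library. Control cells held 90.3 to 625 CPM of 6 collecting duct principal cell markers, but also 38.6 to 1252 CPM of 5 podocyte markers and 41.0 to 1454 CPM of 6 endothelial markers. Control-cell control-diet library 4 stood apart from the rest of its group, with Pearson correlations over genes of 0.788 to 0.879 against 0.933 to 0.948 among the other 3, and it had the lowest podocyte and endothelial sums of the control-cell libraries. Without it, 2490 genes in place of 938 were called between MD and control cells on control diet, while the count of the 10 proximal tubule genes called stayed at 3. Among control cells on LS+ACEi, libraries 1 and 3 correlated at 0.918 and libraries 2 and 4 at 0.938, against 0.840 to 0.905 across these pairs. Libraries 1 and 3 held 759 and 966 CPM of 8 thick ascending limb markers, and libraries 2 and 4 held 473 and 317 CPM.

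RNA of all 10 genes was found in both sorts, but at low levels. Their counts together made up 0.0433% (95% Wilson interval 0.0389% to 0.0481%) of nuclear protein-coding counts in the lowest library, control cells on LS+ACEi 2, and 0.225% (0.218% to 0.231%) in the highest, MD control-diet library 2. Such intervals, and the floors of 3 counts given below, cover counting error only. Mean shares were 0.0644% ± 0.0222 (SD, n = 4) in control cells and 0.178% ± 0.0664 (n = 2) in MD cells on control diet. On LS+ACEi they were 0.0748% ± 0.0272 (n = 4) and 0.0670% ± 0.0292 (n = 2). The 8 thick ascending limb markers, for comparison, held 2.15% ± 0.325 and 1.13% ± 0.00882 in the MD groups on control diet and on LS+ACEi. No library of purified proximal tubule cells was among the 12, so the shares were not turned into a share of cells. The shares of the 10 genes include Gpx3. Without Gpx3 the summed levels were 57.1 ± 24.8 CPM in control cells and 183 ± 59.2 CPM in MD cells on control diet. On LS+ACEi they were 38.8 ± 23.6 CPM and 75.5 ± 39.0 CPM, and control-cell LS+ACEi library 3 was the lowest at 10.7 CPM.

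Of the genes, 5 had more than 3 counts in every library, namely Lrp2, Cubn, Slc5a12, Gpx3 and Ass1. Slc34a1, Slc5a2, Kap and Miox passed that floor in 11 of 12 libraries and Cyp2e1 in 8. All 10 passed the filter on low counts and were among the 14180 genes tested. MD control-diet library 2 was the highest library for 9 of the 10 genes, Cubn being highest in MD LS+ACEi library 2. Control-cell LS+ACEi library 3 was the lowest for 6 of them.

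Compared per kilobase of merged exons, Gpx3 and Kap led the genes in both control-diet groups. In control cells on control diet Gpx3 led with 35.9 CPM per kb and Kap followed with 13.8. Ass1 had 2.88, Slc34a1 2.54, Miox 1.78 and Lrp2 1.06 CPM per kb, and Slc5a2, Cyp2e1, Slc5a12 and Cubn lay between 0.169 and 0.804. In MD cells on control diet Kap stood at 75.2 and Gpx3 at 69.1 CPM per kb, with Ass1 next at 9.43 and Cubn again last at 0.376.

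**Figure D1:**
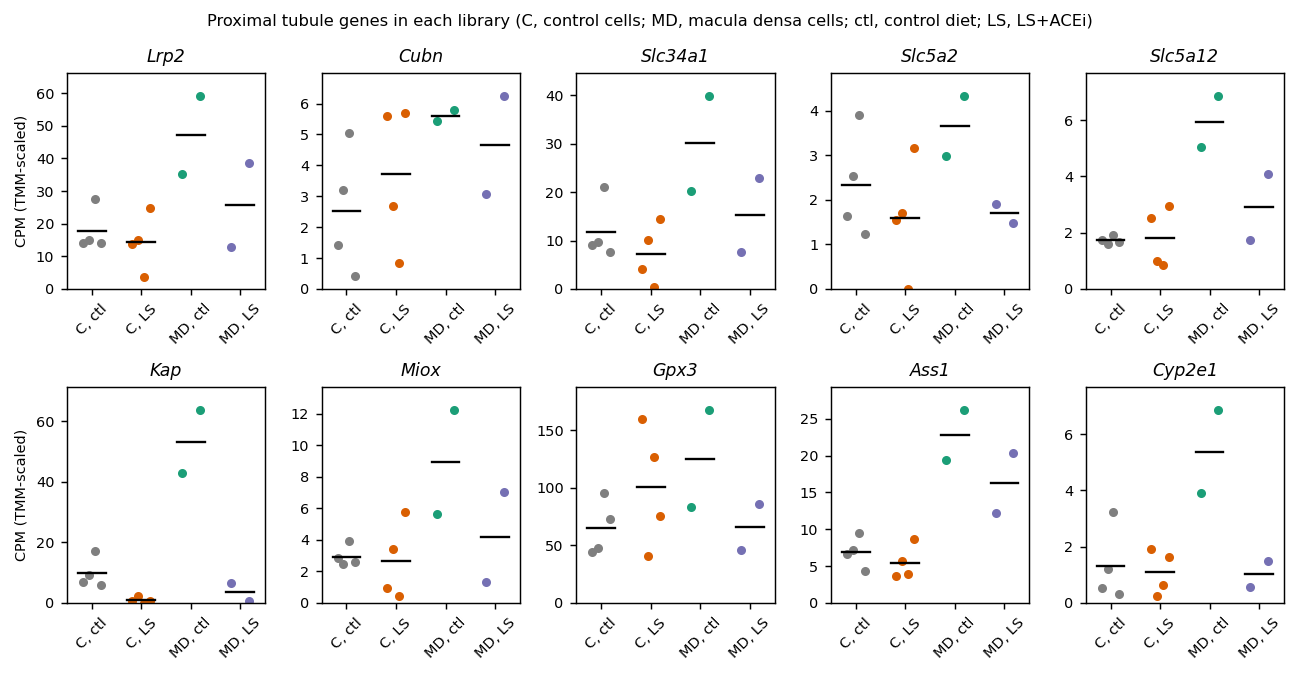
Level of each proximal tubule gene in each of the 12 libraries (y axis, TMM-scaled CPM, a separate scale for each gene; x axis, the 4 groups, with C for control cells, MD for macula densa cells, ctl for control diet and LS for LS+ACEi). Points are libraries and bars are group means: the mean was highest in MD cells on control diet for all 10 genes, and Kap lay at 2.45 CPM or less in control cells on LS+ACEi.

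The uptake receptors come first. Lrp2 encodes megalin, the giant endocytic receptor of the brush border (ENSMUSG00000027070, GRCm38, chr2:69424340-69586065, minus strand). It measured 14.0, 15.1, 27.5 and 13.9 CPM in the 4 control-cell libraries on control diet and 35.3 and 59.0 CPM in the 2 MD libraries on that diet. With LS+ACEi it measured 13.8, 14.9, 3.57 and 24.9 CPM in control cells and 12.8 and 38.7 CPM in MD cells. MD libraries lay above control cells on control diet without overlap, and on LS+ACEi the groups overlapped. Cubn, which encodes cubilin, the partner receptor of megalin (ENSMUSG00000026726, chr2:13276338-13491813, minus strand), ranged from 0.413 to 5.05 CPM in control cells on control diet and stood at 5.44 and 5.78 CPM in MD cells. Its highest value, 6.23 CPM, was in an MD library on LS+ACEi. It shares 368 exon bases with Gm13270 on the opposite strand, and its counts are uncertain, as no source used here says whether strand was used in counting, although Gm13270 held only 34 counts over all libraries.

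The apical transporters were Slc34a1, Slc5a2 and Slc5a12. Slc34a1 encodes the sodium-phosphate cotransporter NaPi-IIa (ENSMUSG00000021490, chr13:55398187-55415592, plus strand). It measured 9.08, 9.68, 21.1 and 7.54 CPM in control cells and 20.3 and 39.8 CPM in MD cells on control diet. Under LS+ACEi it measured 4.07, 10.04, 0.420 and 14.5 CPM in control cells and 7.66 and 23.0 CPM in MD cells. The order of libraries followed that of Lrp2 closely, with 54.1 to 76.8 Slc34a1 counts per 100 Lrp2 counts in 10 of the 12 libraries. The exceptions were control-cell LS+ACEi libraries 1 and 3, with 29.4 and 11.8. In library 3 the ratio rests on 2 Slc34a1 and 17 Lrp2 counts. Its exons share 545 bases with Pfn3 on the opposite strand, a gene with no row in the deposited count table.

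Slc5a2 encodes SGLT2, the glucose cotransporter of the early proximal tubule (ENSMUSG00000030781, chr7:128265657-128272430, plus strand). It ranged from 1.24 to 3.90 CPM in control cells and from 2.97 to 4.32 CPM in MD cells on control diet. On LS+ACEi it had 0 counts in control-cell library 3, where the floor of 3 counts allows 0.630 CPM, and 3.15 CPM at most. Slc5a2 shares 597 exon bases with BC017158 on the opposite strand, which held 677 counts in all against 254 for Slc5a2, so its counts are uncertain. Slc5a12 encodes a lactate and monocarboxylate cotransporter (ENSMUSG00000041644, chr2:110597298-110647779, plus strand). It measured 1.75, 1.60, 1.90 and 1.65 CPM in control cells and 5.03 and 6.84 CPM in MD cells on control diet. On LS+ACEi it measured 2.54, 0.979, 0.840 and 2.95 CPM in control cells and 1.72 and 4.10 CPM in MD cells. The MD libraries lay well above control cells on control diet, and the groups overlapped on LS+ACEi.

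Kap encodes kidney androgen-regulated protein, a small protein of mouse proximal tubule cells whose RNA is known to respond to androgen (ENSMUSG00000032758, chr6:133849851-133853762, minus strand). It measured 6.998, 9.21, 17.0 and 5.89 CPM in control cells and 42.8 and 63.6 CPM in MD cells on control diet. With LS+ACEi it measured 0.538, 2.45, 0 and 0.610 CPM in control cells and 6.51 and 0.656 CPM in MD cells. Both control-diet groups lay above both LS+ACEi groups except that MD LS+ACEi library 1, at 34 counts, reached the range of control cells on control diet. The raw counts were 57 to 179 in control cells and 417 and 781 in MD cells on control diet, against 0 to 10 and 34 and 4 on LS+ACEi.

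The metabolic genes were Miox, Gpx3, Ass1 and Cyp2e1. Miox encodes myo-inositol oxygenase, the first enzyme of inositol breakdown (ENSMUSG00000022613, chr15:89334398-89337015, plus strand), and ranged from 2.44 to 3.90 CPM in control cells and from 5.64 to 12.2 CPM in MD cells on control diet. On LS+ACEi it ranged from 0.420 to 5.80 CPM in control cells and from 1.34 to 7.05 CPM in MD cells. Cyp2e1 encodes an ethanol-inducible cytochrome P450 (ENSMUSG00000025479, chr7:140763739-140774987, plus strand) and was the sparsest gene, with 234 counts in all. It stood at 3.90 and 6.84 CPM in MD cells on control diet and between 0.245 and 3.24 CPM in every other library. Ass1 encodes argininosuccinate synthase, which together with the next enzyme of the pathway makes arginine from citrulline (ENSMUSG00000076441, chr2:31470207-31520672, plus strand). It measured 6.67, 7.23, 9.52 and 4.34 CPM in control cells and 19.4 and 26.1 CPM in MD cells on control diet. Under LS+ACEi it measured 3.61, 5.63, 3.99 and 8.65 CPM in control cells and 12.3 and 20.3 CPM in MD cells. Ass1 was the only one of the 10 genes whose MD libraries lay above the control-cell libraries without overlap on both diets.

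Gpx3 encodes the secreted plasma glutathione peroxidase, made largely in the kidney (ENSMUSG00000018339, chr11:54902453-54910377, plus strand). It measured 44.1, 47.6, 95.8 and 72.9 CPM in control cells and 83.2 and 167 CPM in MD cells on control diet. On LS+ACEi it measured 160, 40.6, 126 and 75.1 CPM in control cells and 46.4 and 86.3 CPM in MD cells. The order of libraries departed from that of the other genes: control-cell LS+ACEi library 3, the lowest for 6 of the 10 genes, was among the highest for Gpx3. Gpx3 had 3541 counts per 100 Lrp2 counts in that library, where Lrp2 had only 17 counts, and 1155 in library 1 of the same group. In the remaining 10 libraries Gpx3 had 223 to 523. It made up 37.2% to 92.2% of the counts of the 10 genes, so sums over the genes are given with and without it.

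RefSeq promoter windows of GRCm38.p6, from 250 bases before to 50 bases after the gene start, were matched for 8 of the 10 genes, all but Slc5a2 and Slc5a12. The windows of Slc34a1, which kept step with Lrp2 in most libraries, of Kap, whose ratio to Lrp2 had separate ranges on the 2 diets within each sort, and of Gpx3, which ran apart from the other genes, are shown 5′ to 3′ on the gene's strand. They span chr13:55399398-55399697 (plus strand), chr6:133853618-133853917 (minus strand) and chr11:54902604-54902903 (plus strand). The windows of Slc34a1 and Gpx3 lie within the gene coordinates given above, which begin at 55398187 and 54902453, so the RefSeq starts used here differ from those. Capitals mark matches on either strand to TATAAA (the TATA box sequence) or AGAACA (a half-site of androgen, glucocorticoid and mineralocorticoid receptors). Matches to the 2 motifs did not overlap.
Slc34a1: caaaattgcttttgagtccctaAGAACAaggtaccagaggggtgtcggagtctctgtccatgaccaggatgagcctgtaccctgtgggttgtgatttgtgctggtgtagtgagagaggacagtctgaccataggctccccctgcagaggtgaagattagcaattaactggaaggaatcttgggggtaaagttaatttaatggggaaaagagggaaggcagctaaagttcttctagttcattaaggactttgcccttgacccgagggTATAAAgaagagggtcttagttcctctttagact
Kap: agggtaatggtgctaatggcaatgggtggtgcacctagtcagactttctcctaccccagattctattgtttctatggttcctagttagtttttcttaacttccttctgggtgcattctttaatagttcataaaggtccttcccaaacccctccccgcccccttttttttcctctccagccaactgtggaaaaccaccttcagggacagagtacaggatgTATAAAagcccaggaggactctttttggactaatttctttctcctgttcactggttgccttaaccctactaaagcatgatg
Gpx3: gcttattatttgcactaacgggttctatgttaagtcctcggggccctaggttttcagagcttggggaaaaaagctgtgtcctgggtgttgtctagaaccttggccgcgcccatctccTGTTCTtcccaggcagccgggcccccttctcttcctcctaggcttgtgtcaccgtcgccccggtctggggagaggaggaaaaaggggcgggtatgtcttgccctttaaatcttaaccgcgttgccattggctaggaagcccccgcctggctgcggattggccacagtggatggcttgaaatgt
Slc34a1 held AGAACA at position -228 relative to the RefSeq start and TATAAA at 16, that is after this start. Kap held a single match, TATAAA at -31, and Gpx3 held AGAACA at -133. Among the 8 windows TATAAA occurred in 4 and AGAACA in 2, against 13.6% and 19.0% of 32851 RefSeq windows of the same length. The motifs were chosen after the levels had been seen, and a match is a description of these letters only.

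The comparison of MD with control cells on control diet asked whether the sorts differed at baseline. All 10 genes had a positive fitted difference, against 46.9% of all genes tested. Ass1, Slc5a12 and Kap were called higher in MD cells by edgeR's quasi-likelihood test at a Benjamini-Hochberg adjusted p of 0.05 over all genes. That is 3 of 10 higher and 0 lower, where 2.69% of all genes tested were called higher and 3.92% lower. Ass1 was higher by 1.71 ± 0.36 (SE) on the log2 scale, a 3.27-fold difference (edgeR adjusted p = 0.0185). Slc5a12 was higher by 1.78 ± 0.46, a 3.42-fold difference (adjusted p = 0.0408). Kap was higher by 2.44 ± 0.66, a 5.42-fold difference (adjusted p = 0.0470). Libraries of the 2 groups did not overlap for 7 of the 10 genes, all with MD cells higher, against 15.2% of all genes. The median log2 difference was 1.51 over the 10 genes and -0.05 over all genes tested.

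The remaining 7 genes did not pass the test. Their edgeR log2 differences were 1.99 ± 0.76 for Cyp2e1 (adjusted p = 0.130), 1.60 ± 0.72 for Miox (0.196) and 1.42 ± 0.56 for Lrp2 (0.147). Slc34a1 stood at 1.34 ± 0.75 (0.301), Cubn at 1.14 ± 0.73 (0.375), Gpx3 at 0.94 ± 0.49 (0.268) and Slc5a2 at 0.64 ± 0.71 (0.642). The 3 calls were lost without either MD library while the log2 differences stayed near their values. With 1 MD library left on a diet, that library is assumed to vary like the libraries of the other groups, here and below. Without MD control-diet library 1 the log2 differences were 1.93 for Ass1, 1.997 for Slc5a12 and 2.72 for Kap (edgeR adjusted p of 0.0509, 0.108 and 0.115). Without library 2 they were 1.53, 1.59 and 2.18 (adjusted p of 0.166, 0.259 and 0.258). Leaving out control-cell control-diet library 1, 2 or 3 gave adjusted p of 0.0757, 0.0880 and 0.0882 for Slc5a12 and 0.0958, 0.102 and 0.0596 for Kap. Leaving out control-cell LS+ACEi library 1 gave 0.0511 for Slc5a12 and 0.0621 for Kap, and leaving out library 4 of that group gave 0.0599 for Kap. Scaling by library totals alone moved the median over all genes from -0.05 to 0.12 and the calls over all genes from 382 higher and 556 lower to 542 and 328, and it called the same number of the 10 genes (3).

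On LS+ACEi the difference between the sorts was seen for 1 of the 10 genes. Ass1 was called, 1.57 ± 0.38 higher on the log2 scale in MD cells, a 2.96-fold difference (edgeR adjusted p = 0.0307), where 3.15% of all genes were called higher and 4.13% lower. Libraries did not overlap for this gene alone, against 15.3% of all genes with MD cells higher. Kap stood at 2.15 ± 0.91 (adjusted p = 0.161), a value that rested on MD library 1 and turned to -0.29 without it. Slc34a1 stood at 1.06, Lrp2 at 0.84, Miox at 0.66, Slc5a12 at 0.59, Cubn at 0.27 and Slc5a2 at 0.01, and Cyp2e1 and Gpx3 were below 0 at -0.23 and -0.60. The median over the 10 genes was 0.63, against -0.06 over all genes tested. Without MD LS+ACEi library 2 that median was -0.20 and Ass1 stood at 1.13 (edgeR adjusted p = 0.239). Without control-cell LS+ACEi library 1, 2 or 3 Ass1 stood at 1.39, 1.58 and 1.45 (adjusted p of 0.0645, 0.0616 and 0.0529). With scaling by library totals alone the calls over all genes were 736 higher and 392 lower in place of 446 and 585.

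Averaged over both diets, 3 of the 10 genes were called higher in MD cells and 0 lower, where 7.48% of all genes were called higher and 13.9% lower. Ass1 was higher by 1.64 ± 0.26 on the log2 scale (edgeR adjusted p = 0.00146), and this call was the one that held without any single library. Kap was higher by 2.30 ± 0.56 (adjusted p = 0.0131) and Slc5a12 by 1.18 ± 0.34 (adjusted p = 0.0285). Lrp2 stood at 1.13 ± 0.40 (adjusted p = 0.0660), Slc34a1 at 1.20 ± 0.54 and Miox at 1.13 ± 0.54. Gpx3 had the smallest value, 0.17 ± 0.36. Without MD LS+ACEi library 1 the value of Kap was 1.09 (adjusted p = 0.337), and with limma voom its adjusted p was 0.0532. Lrp2 was called with library totals alone (0.0429), with the DESeq2 Wald test (0.0405), without control-cell LS+ACEi library 4 (0.0363) and without MD LS+ACEi library 1 (0.0385). Slc5a12 had an adjusted p of 0.0510 and 0.111 without MD control-diet library 1 or 2, and 0.206 without MD LS+ACEi library 2. The split over all genes, 1061 higher and 1966 lower, was 1827 and 1450 with library totals alone.

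**Figure D2:**
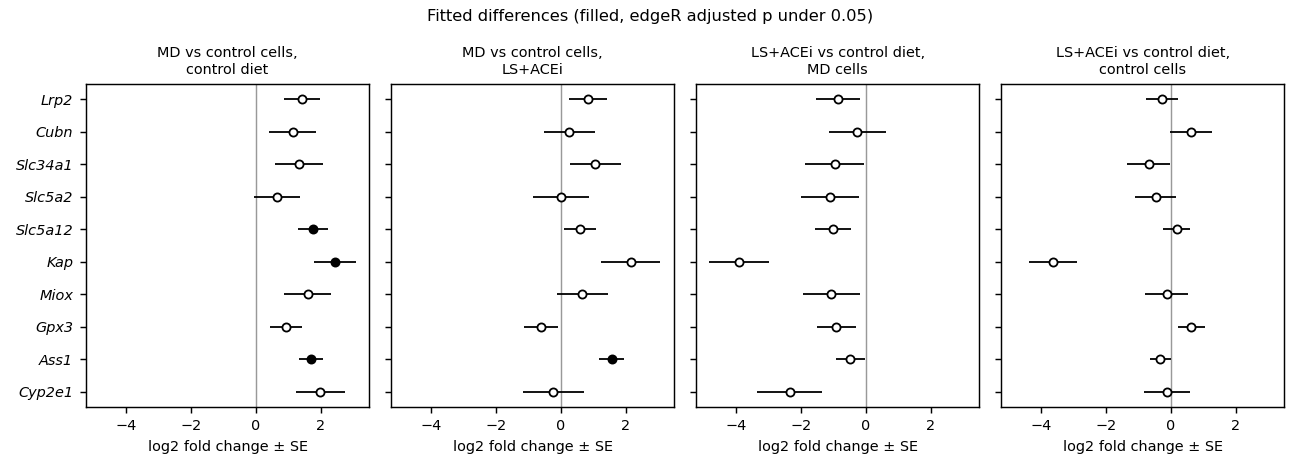
Fitted log2 fold change (x axis) of each of the 10 genes (y axis) in 4 comparisons, with bars of 1 standard error and filled points where edgeR's adjusted p was under 0.05. Ass1, Kap and Slc5a12 are filled between MD and control cells on control diet, Ass1 alone on LS+ACEi, and no gene is filled in the diet comparisons, where Kap lies at -3.92 in MD cells and -3.63 in control cells.

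Markers of other cells moved with the sort. Podocyte markers held 0.379% and 0.289% of nuclear protein-coding counts in control cells on control diet and on LS+ACEi, against 0.0444% and 0.00428% in MD cells, and the endothelial markers held 0.450% and 0.353% against 0.0536% and 0.00708%. All 8 thick ascending limb markers tested had positive differences on control diet, with a median of 1.70. Mitochondrial genes took 11.7% and 14.1% of all counts in MD cells on control diet, 3.81% to 9.98% in control cells on that diet, and 7.18% and 6.88% in MD cells on LS+ACEi. The part of these markers and shares in the differences of the 10 genes was not tested.

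A wider set of 88 other proximal tubule genes was read beside the 10. The table held 84 of them, and 75 were tested. On control diet 10 were called higher in MD cells and 2 lower by edgeR, against 2.69% and 3.92% of all genes tested, and the same shares stand behind the list counts that follow. The median was 1.28, with 62 of 75 above 0, against 46.9% of all genes. Of 16 apical transporters, 2 were called higher, Slc5a1 (the glucose cotransporter SGLT1), which rose by 4.13 ± 0.76 on the log2 scale (adjusted p = 0.00943), and Slc22a12 (the urate transporter URAT1), which rose by 1.94 ± 0.50 (0.0407). Of 10 basolateral transporters, 1 was called, Slc7a8 (an amino acid exchanger), higher by 1.92 ± 0.48 (0.0365). Slc5a1 stood apart from the 10 genes in its pattern: it measured 119 and 142 CPM in MD cells on control diet and still 81.2 and 88.5 CPM on LS+ACEi, against 1.31 to 27.5 CPM in control cells.

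Of 24 genes of metabolism, 4 were called higher, Hao2, Acsm3, Ttc36 and Ugt2b38, with log2 differences of 2.46, 2.12, 2.15 and 2.01. Of 5 transcription factors, 2 were called higher, among them Cebpa, by 1.29. The 4 genes of the S3 segment, the last stretch of the proximal tubule, had no call, 2 with an unadjusted p under 0.05, and a median of 1.35. Of 5 endocytosis genes, Dab2, an adaptor protein of megalin, was called lower, by -2.85 ± 0.30 (edgeR adjusted p = 0.000439), with 27.4 to 36.5 CPM in control cells and 3.69 and 4.81 CPM in MD cells. Lrpap1, the chaperone of megalin, measured 17.8 to 21.3 CPM in control cells and 24.4 and 27.3 CPM in MD cells and was not called.

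Of 11 brush border genes, Ggt1 (gamma-glutamyltransferase) was called higher, by 1.73, and Anpep (aminopeptidase N) lower, by -3.04, and averaged over both diets 4 were called lower, Anpep, Dpp4 and Enpep among them. Enpep encodes aminopeptidase A, which is also found on podocytes. It measured 50.6 to 102 CPM in the 3 control-diet and 78.3 and 92.3 CPM in the 2 LS+ACEi control-cell libraries with 638 CPM or more of podocyte markers, and 7.44 to 12.7 CPM in the other 3 control-cell libraries, with 202 CPM or less. MD cells held 1.15 to 10.9 CPM of Enpep. The part of podocyte RNA in the brush border list was not tested.

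On LS+ACEi the 75 genes had 3 calls higher (Ocrl, Ttc36 and Cebpa) and 3 lower (Dab2, Anpep and Dpp4), with a median of 0.29. These counts were near the shares of all genes, 3.15% higher and 4.13% lower. Averaged over both diets 14 were called higher and 7 lower, with a median of 0.80, where 7.48% of all genes were called higher and 13.9% lower. Beyond the genes above, these included Slc13a3 (a dicarboxylate transporter), higher by 1.29, and Slc6a18 (a neutral amino acid transporter), lower by -2.12. Both S3 genes with the highest levels were called, Slc7a13 (an aspartate and glutamate transporter) higher by 1.65 and Atp11a (a phospholipid flippase) by 0.84, and Fmo1 (a flavin monooxygenase) was lower by -2.27. Other abundant genes of the lists did not pass the test, with averaged log2 differences of 0.94 for Slc9a3 (the sodium-proton exchanger NHE3), 0.87 for Slc4a4 (a sodium bicarbonate cotransporter), 0.16 for Mme (neprilysin) and -1.44 for Cyp4b1. Summed over the 84 genes, the level was 545 ± 54.9 CPM in control cells and 835 ± 94.0 CPM in MD cells on control diet, and 586 ± 39.5 CPM and 694 ± 16.7 CPM on LS+ACEi. Without Slc5a1 and Atp11a, left out after their values had been seen, the sums were 498 ± 56.7 CPM and 626 ± 103 CPM on control diet and 493 ± 55.5 CPM and 481 ± 64.5 CPM on LS+ACEi.

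**Figure D3:**
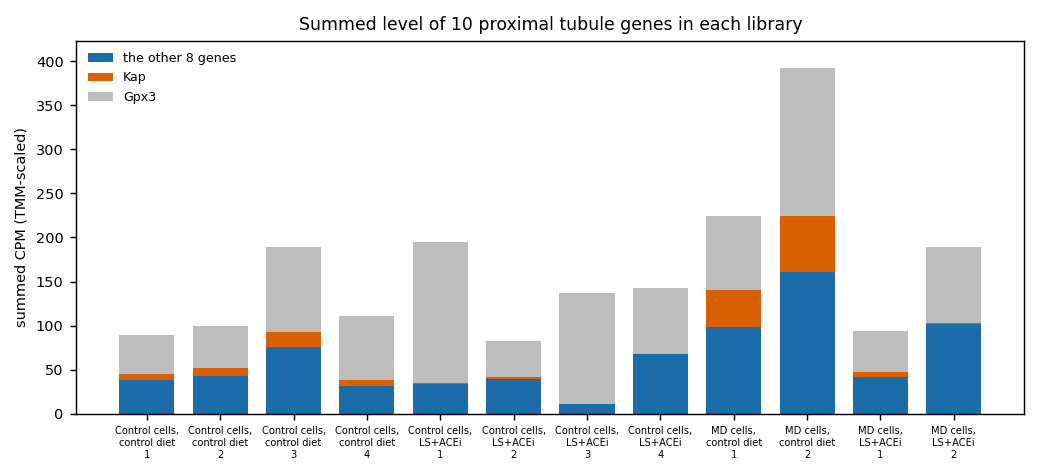
Summed level of the 10 genes in each library (y axis, TMM-scaled CPM; x axis, library), with Gpx3, Kap and the other 8 genes as stacked bars. MD control-diet library 2 is highest at 392 CPM, and control-cell LS+ACEi library 3 consists almost wholly of Gpx3, with 10.7 CPM of the other 9 genes.

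Summed over the 10 genes, the level was 122 ± 45.4 CPM (SD, n = 4) in control cells and 308 ± 119 CPM (n = 2) in MD cells on control diet. On LS+ACEi it was 139 ± 45.6 CPM (n = 4) and 142 ± 67.2 CPM (n = 2). Without Gpx3 and Kap, the remaining 8 genes summed to 37.9, 43.0, 76.2 and 32.0 CPM in control cells and 98.0 and 161 CPM in MD cells on control diet. On LS+ACEi they summed to 34.0, 39.7, 10.7 and 67.3 CPM in control cells and 41.4 and 102 CPM in MD cells. The 8-gene sum thus ran over a 15.02-fold range, and MD cells on control diet were the one group whose libraries all lay above those of control cells.

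The descriptions of the libraries carry a number that 4 MD libraries share with 4 control-cell libraries, and the labels do not say what it stands for. On control diet, number 8834 was on the control-cell library and on the MD library with the highest 8-gene sums of their groups (76.2 and 161 CPM). On LS+ACEi, number 2848 was likewise on the highest of both groups (67.3 and 102 CPM). Number 8833 was on the MD library at 98.0 CPM and the control-cell library at 43.0 CPM, and number 8852 on those at 41.4 and 39.7 CPM. The order of the 2 MD libraries was therefore that of the control-cell libraries with the same number on both diets, a description of 4 pairs with no test.

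Between the diets, MD cells had lower fitted values of all 10 genes on LS+ACEi, against 51.2% of all genes, but no gene passed the test. The fitted log2 differences ran from -3.92 for Kap to -0.26 for Cubn, with a median of -0.99 against -0.02 over all genes. EdgeR called 0 of the 10 genes, as it called 0% of all 14180, and 2 of them, Kap and Cyp2e1, had an unadjusted p under 0.05, against 11.2% of all genes. The DESeq2 Wald test called 1, Kap, and limma voom called 0, where they called 93 and 4 of all genes. Libraries did not overlap for 4 genes, Slc5a2, Slc5a12, Kap and Cyp2e1, all lower on LS+ACEi, against 21.8% of all genes in that direction. The sum of the 10 genes fell outside the control-diet range in both libraries, at 94.3 and 189 CPM against 224 and 392 CPM. Without Gpx3 and Kap the sums of the 2 diets overlapped, at 41.4 and 102 CPM on LS+ACEi against 98.0 and 161 CPM. Without MD LS+ACEi library 2 the median was -1.88. Between the same MD groups the macula densa markers went from 387 to 914 CPM and the thick ascending limb markers from 3719 to 2358 CPM, and the mitochondrial share from 11.7% and 14.1% to 7.18% and 6.88%. The part of these in the values of the 10 genes was not tested. The other 75 proximal tubule genes had 0 edgeR calls, 15 lower and 0 higher at an unadjusted p under 0.05, and a median of -0.74, with 57 below 0.

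Control cells were compared between the diets in the same way. Kap had a fitted log2 difference of -3.63 ± 0.74 that did not pass the test (edgeR unadjusted p = 0.000345, adjusted p = 0.317), the 15th smallest p of 14180 genes. EdgeR called 0 of the 10 genes, where 0.00705% of all genes, 1 gene, were called, and Kap was the one gene of the 10 with an unadjusted p under 0.05, against 6.45% of all genes. The DESeq2 Wald test called Kap (adjusted p = 0.00146) and limma voom called 0, where they called 74 and 1 of all genes. Libraries did not overlap for Kap alone, against 2.09% of all genes with LS+ACEi lower. The other 9 genes ran from -0.69 for Slc34a1 to 0.63 for Gpx3 with adjusted p of 0.953 or more, and the median was -0.21 against -0.04 over all genes. The other 75 proximal tubule genes had 0 edgeR calls, 8 higher and 5 lower at an unadjusted p under 0.05, and a median of 0.15.

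Kap was also read in relation to Lrp2. Per 100 Lrp2 counts, Kap had 50, 60.9, 61.9 and 42.2 counts in control cells on control diet and 3.89, 16.4, 0 and 2.45 on LS+ACEi. In MD cells it had 121 and 108 on control diet and 50.7 and 1.69 on LS+ACEi. The value of 0 was in control-cell LS+ACEi library 3, which held only 17 Lrp2 counts. Control cells did not overlap between diets, and neither did MD cells. In control cells the mean ratio was 53.8 ± 9.39 (SD, n = 4) against 5.68 ± 7.32 (n = 4). The ratio was chosen after the values had been seen and is given with no test.

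Within the LS+ACEi groups, the highest Kap values belonged to control-cell library 2 and MD library 1, which share description number 8852, with 2.45 and 6.51 CPM. The lowest MD value, 0.656 CPM, and 0.610 CPM in control-cell library 4 shared number 2848. Averaged over both cell populations, a comparison added after the values had been seen, Kap had a fitted log2 difference of -3.77 ± 0.60 (edgeR unadjusted p = 3.89e-05, adjusted p = 0.0860). It did not pass the test, where 0.00705% of all genes were called. It passed with the DESeq2 Wald test (1.87e-06), with no filter on low counts (0.0357), without control-cell control-diet library 4 (0.0419) and without control-cell LS+ACEi library 2 (0.0301). Over all genes these fits called 245, 7, 20 and 9. In MD cells alone the edgeR adjusted p was 0.218, the DESeq2 Wald test gave 0.0196 and a fit of the 2 MD groups alone gave 0.00425. The DESeq2 Wald test called 93 of 14180 genes there, and the fit of the MD groups alone 105 of 11321.

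Because Kap is androgen-responsive, sex-linked RNA was read beside it. Xist, the RNA of the inactive X chromosome, ran from 0 to 1.46 CPM over the 12 libraries. The Y-linked genes Ddx3y, Eif2s3y, Kdm5d and Uty were present in every library, at 9.50 to 18.2, 5.63 to 12.9, 8.36 to 23.3 and 6.30 to 13.6 CPM.

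**Figure D4:**
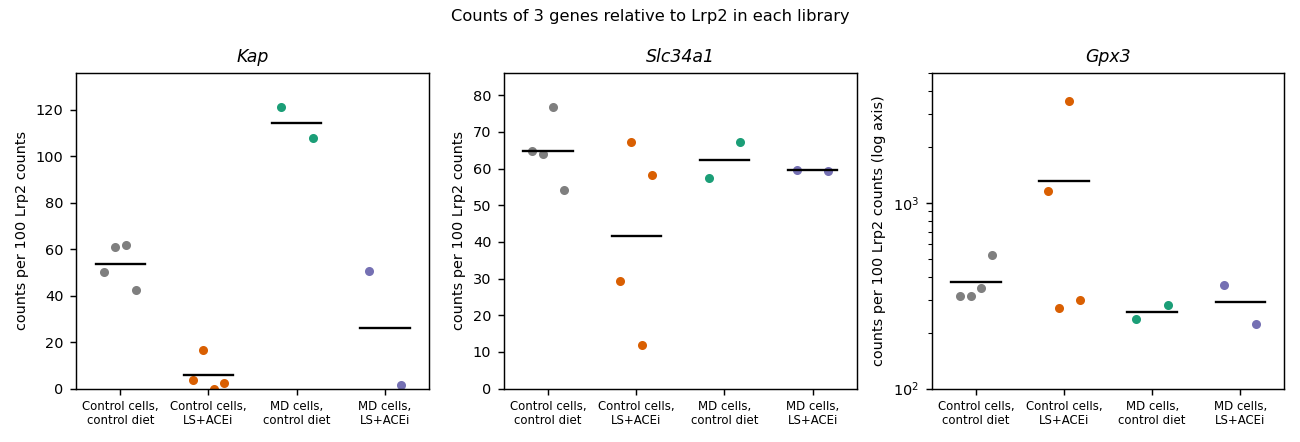
Counts of Kap, Slc34a1 and Gpx3 per 100 counts of Lrp2 in each library (y axis, logarithmic for Gpx3; x axis, group), with bars at group means. Kap lies at 42.2 or more on control diet and at 50.7 or less on LS+ACEi, Slc34a1 at 54.1 to 76.8 in 10 of 12 libraries, and Gpx3 at 1155 and 3541 in 2 control-cell libraries on LS+ACEi.

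The difference between the diet effects of MD and control cells was not called for any of the 10 genes. Here edgeR called 0% of all genes, and 0 of the 10 had an unadjusted p under 0.05, against 7.03% of all genes. For Kap the difference was -0.29 ± 1.25 (95% interval -3.00 to 2.43, adjusted p = 0.976). Gpx3 had -1.54 ± 0.73 (adjusted p = 0.718) and Cyp2e1 had -2.22 ± 1.22 (adjusted p = 0.761). The median was -0.75, and -1.60 without MD LS+ACEi library 2.

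The 10 genes varied together to different degrees over the 12 libraries. The Pearson correlation of log2 CPM with the mean of the other 9 genes was 0.96 for Lrp2, 0.88 for Slc5a12, 0.87 for Slc34a1, 0.82 for Miox and 0.80 for both Ass1 and Cyp2e1. It was 0.77 for Slc5a2, 0.69 for Cubn, 0.58 for Kap and 0.18 for Gpx3. These are descriptions over 12 libraries that share depth, scaling and group differences. Of 6683 further genes with a mean of at least 5 CPM, Acsm2 (0.91), a medium-chain acyl-CoA synthetase, Lrpap1 (0.87) and Cyp2j5 (0.86), a cytochrome P450, were most like the mean of the 10 genes, followed by Gcnt1, Agpat1, Acaa1a, Creld2, Msantd4, Eif2s1 and Crocc down to 0.82. Of these 10 genes, 3 were on the proximal tubule lists.

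The 2 control-cell libraries with a high ratio of Gpx3 to Lrp2 were also those with the most Cyp4a14, a fatty acid hydroxylase of the proximal tubule, chosen after its values had been seen. Cyp4a14 measured 13.1 and 16.2 CPM in control-cell LS+ACEi libraries 1 and 3 and 2.46 CPM or less in the other 10. Libraries 1 and 3 also correlated more with each other over all genes than with the rest of their group. The part of this in the ratio and in Cyp4a14 was not tested.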

How the data were processed

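RNA of sorted mouse kidney cortex cells was measured in 12 libraries from total RNA, with 1 strand-marking kit and in 1 preparation, per the labels' protocols. The deposited table holds estimated counts per gene, made by the authors: 16.1% of its values were not whole numbers, so they were handled in the way of expected counts, that is rounded. STAR 2.61, Partek and mm10 are named in the submitters' processing notes, with no role given. Gene symbols and starts of 23351 of 23378 rows, and their ends less 1, equalled GENCODE M21 on GRCm38, the source of the coordinates. Every gene had a sum of at least 10, and 0 columns lacked a sample. Counting is not stated to use strand.

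The groups came from the labels. A single edgeR 4.0.16 quasi-likelihood fit (R 4.3.3, TMM scaling, filterByExpr at its minimum count of 10 and minimum total of 15) with a coefficient per group covered 14180 genes, adjusted by Benjamini-Hochberg at 0.05. Alternatives were DESeq2 1.42.0 size factors and Wald test, limma 3.58.1 voom, library totals, other filters, removal of ribosomal and mitochondrial genes, fits of the groups compared, a 0.01 threshold, replicate blocks and leaving out each library. Lrp2-based ratios, sums without Gpx3, the diet comparison averaged over populations and the promoter motifs were added after the data were seen. The 10 genes, the lists (endocytosis, apical and basolateral transport, brush border, metabolism, S3 segment, transcription factors) and the rule for named genes (all 10; in each list, the 2 with the highest mean CPM and up to 3 past the threshold with the smallest adjusted p; the 10 most correlated genes) were chosen with earlier results of these data known. Some genes that this rule names are not reported here.

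The fit was tested on simulated counts in which 200 genes, drawn from those with a mean of at least 5 CPM, differed 4-fold. It called 91.5% of them for the sorts averaged over diets (13882 genes, 6 false calls) and 40% for diet in MD cells (13659 genes, 2 false calls). For diet in control cells it called 90% (13720 genes, 9 false calls), and for the difference of diet effects 8% (13751 genes, 1 false call). These rates do not cover genes with a mean below 5 CPM, here Cubn, Slc5a2, Slc5a12, Miox and Cyp2e1. Slc5a2 had 4.32 CPM or less in every library. The sorts compared within a single diet were not simulated. The range of depth is given in the results. Both MD libraries on LS+ACEi were shallower, at 4730295 and 5824932 total counts, than those on control diet, at 8637691 and 11085556. Control-cell libraries 1 to 4 on LS+ACEi had 14856540, 4259034, 5930250 and 9358852, and those on control diet had 8965629 to 11458371. By chi-square tests every pair of replicate libraries differed beyond sampling noise. Sequences are from RefSeq.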

Additional observations from a re-analysis of the deposited data

Results flagged for a closer look

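Of 24 sets of 4 libraries checked (10 genes and 2 sums in each control-cell group, on log2(CPM + 0.5)), 1 had a library far from the other 3. Lrp2 measured 27.5 CPM in control-cell control-diet library 3, against 13.9 to 15.1 CPM in the other 3 of that group. A gap of this size is met by chance in about 1 of 20 groups, or 1.2 of 24.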

How the results depend on the processing

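Depth was low for these genes, and the MD groups had 2 libraries each. Of the 10 genes, a threshold of 0.01 called 0 between the sorts on control diet, 0 on LS+ACEi and 1 averaged. Diet calls of Kap (1 in place of 0) appeared with the DESeq2 Wald test in MD cells, in control cells and averaged, with a fit of the MD groups alone in MD cells (1), and with no filter in the averaged comparison (1). Over all genes the DESeq2 Wald test called 93, 74 and 245, the MD fit 105 and the averaged fit without a filter 7.

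A replicate block on the title number called 0, 0 and 1 of the 10 genes between the sorts on control diet, on LS+ACEi and averaged. Over all 14180 genes it called 378, 396 and 1908, where the main fit called 938, 1031 and 3027. A block on the description number called 6 on control diet and 6 averaged, where it called 2292 and 3683 of all genes. The labels do not tie equal numbers to an animal or batch, so no pairing was used in the main fit. Deviations were correlated over 0.1 in 2 of 14 library pairs with equal title numbers and in 1 of 4 with equal description numbers. With 2 libraries in an MD group the deviations are mirror images, so this check cannot decide whether the description numbers pair libraries. The description block cannot be fitted for the diets, since no number spans both.

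Leaving out mitochondrial and ribosomal RNA genes raised the summed level to 525, 616, 1342 and 615 CPM in control cells on control diet, control cells on LS+ACEi and the MD groups in the same order, because the totals shrink. Leaving out Gpx3 gave 57.1, 38.8, 183 and 75.5 CPM.

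Leaving out 1 library at a time, the genes called ranged from 0 to 3 between the sorts on control diet, 0 to 1 on LS+ACEi, 2 to 4 averaged, and 0 to 1 for the averaged diets. The median log2 fold change ranged from -0.20 to 1.04 between the sorts on LS+ACEi, from -1.88 to -0.52 for diet in MD cells and from -1.60 to -0.36 for the difference of diet effects.

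Uncalled values that changed sign between the sorts on LS+ACEi were, with 1 library left out, Cubn (-0.37 to 0.63), Cyp2e1 (-1.12 to 0.21), Kap (-0.29 to 3.01), Lrp2 (-0.19 to 1.38), Miox (-1.01 to 1.51), Slc5a12 (-0.21 to 1.01) and Slc5a2 (-0.35 to 0.55). With the description block they were Cyp2e1 (0.18), Gpx3 (0.20), Miox (-0.29) and Slc5a2 (-0.53, and averaged -0.17), and Slc5a2 also stood at -0.066 with no filter and at -0.00052 without mitochondrial and ribosomal RNA genes. With 1 library left out, Gpx3 averaged over diets ranged from -0.13 to 0.36, and for diet in MD cells Cubn ranged from -0.93 to 0.080. For diet in control cells Cyp2e1 ranged from -0.52 to 0.78, Lrp2 from -0.67 to 0.025, Miox from -0.97 to 0.19 and Slc5a12 from -0.081 to 0.39, and the difference of diet effects of Kap ranged from -2.76 to 0.54. Cyp2e1 for diet in control cells stood at 0.33 with limma voom and 0.31 with the title block. The cause of these changes was not tested.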
